A study of Caenorhabditis elegans with 2 samples.

Results

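A set of 251 CHD-7 binding regions is described here, the reproducible ChIP-seq peaks of whole worms whose summit lies inside a protein-coding exon. They were chosen by position alone: of the 1884 reproducible peaks on the ce11 build, a peak was kept where its summit, the base of highest signal, fell in an annotated coding exon of the Ensembl WBcel235 gene models. They make up 13.3% of the reproducible list (95% Wilson interval 11.9 to 14.9%), and they lie in 241 host genes, or 1.21% of the 19973 annotated protein-coding genes. The study measured chromatin immunoprecipitation followed by sequencing in Caenorhabditis elegans strain OP609, genotype unc-119(tm4063) III; wgIs609, in which an integrated transgene makes CHD-7 with GFP and FLAG at its C-terminal end. Mixed-sex young adults were taken 67 hours after release from starved first-stage larvae, and chromatin was pulled down through GFP. There was 1 group with 2 biological replicates, no second condition, and a control alignment that was not analysed here. All worms carried the transgene in addition to the worm's own chd-7, and whole animals were used, so a peak cannot be assigned to a cell type.

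CHD-7 belongs to the chromodomain helicase DNA-binding family, ATPases that slide or evict nucleosomes. Its human counterpart, CHD7, is mutated in CHARGE syndrome and is mostly studied at enhancers and promoters. Coding exons are transcribed sequence, and a ChIP peak there can lie next to the gene's own start, next to a neighbouring gene, or far from either, which is why the position of each summit along its host gene is given with its signal. The signal is the peak caller's value in the authors' files, with no unit stated, and it is used here to rank peaks within a list. Library depth is unknown because the lists hold no read counts, and intervals on shares and medians cover the counting of peaks only.

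The bases around the summit are shown for 6 of the peaks, read on the strand of the host gene from the RefSeq WBcel235 genome, 75 bases to each side of the summit. The first 3 are strong peaks more than 1000 bp from the start of the host gene, F42A6.6 and rpc-2 are strong peaks just inside a first coding exon, and C04A2.15 is the only member with the tRNA B-box core in its window. Capitals mark matches to the motifs searched, which are given with their shares further on, and dos-3, stdh-1 and rpc-2 hold none of them.
dos-3 (chrIII:835911-836061, minus strand): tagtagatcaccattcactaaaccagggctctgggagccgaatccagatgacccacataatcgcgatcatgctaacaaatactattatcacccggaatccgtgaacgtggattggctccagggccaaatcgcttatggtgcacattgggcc
pks-1 (chrX:5429464-5429614, plus strand): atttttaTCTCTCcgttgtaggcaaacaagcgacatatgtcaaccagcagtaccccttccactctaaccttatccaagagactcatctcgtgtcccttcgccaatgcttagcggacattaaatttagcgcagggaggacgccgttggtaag
stdh-1 (chrV:13907706-13907856, plus strand): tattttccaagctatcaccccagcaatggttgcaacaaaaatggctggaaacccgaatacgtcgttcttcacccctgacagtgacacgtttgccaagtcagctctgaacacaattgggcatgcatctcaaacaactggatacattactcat
F42A6.6 (chrIV:3336691-3336841, minus strand): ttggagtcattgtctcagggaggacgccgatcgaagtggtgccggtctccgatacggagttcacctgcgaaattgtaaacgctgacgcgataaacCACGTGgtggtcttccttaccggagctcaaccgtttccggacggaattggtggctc
rpc-2 (chrIII:5557389-5557539, plus strand): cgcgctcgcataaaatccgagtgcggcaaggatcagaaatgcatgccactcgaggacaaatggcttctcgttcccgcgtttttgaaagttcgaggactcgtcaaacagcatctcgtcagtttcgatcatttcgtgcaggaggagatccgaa
C04A2.15 (chrII:6853239-6853389, plus strand): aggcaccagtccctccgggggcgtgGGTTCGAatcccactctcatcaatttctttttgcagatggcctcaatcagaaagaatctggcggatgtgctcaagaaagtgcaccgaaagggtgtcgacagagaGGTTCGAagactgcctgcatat
The windows of dos-3, stdh-1, F42A6.6 and rpc-2 are coding over all 151 bases. That of pks-1 holds 130 coding bases and that of C04A2.15 holds 90, and neither holds untranslated exon sequence.

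Coding exons held a smaller share of the reproducible peaks than of the regions the peak caller considered. The pooled list of both replicates held 30000 candidate regions, of which 6.28% were on the reproducible list. Of the 12180 candidates with a summit in a coding exon, 251 were reproducible, a share of 2.06% (1.82 to 2.33%). Among the candidates off the reproducible list, 42.4% had their summit in coding sequence. The 11838 coding candidates that overlap no reproducible peak serve below as the other coding candidates, and the 1633 reproducible peaks with a summit elsewhere as the other reproducible peaks. All of the other coding candidates had a lower pooled signal than any member. The pooled list is labelled as peaks and background, so these candidates can include background regions as well as weaker peaks.

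Members lay more often at the ends of the coding sequence than other coding candidates did. Of the 251 summits, 71 were in the first coding exon of the host transcript (28.3%, 23.1 to 34.2%), 96 in an inner one (38.2%, 32.5 to 44.4%), 76 in the last one (30.3%, 24.9 to 36.2%) and 8 in the only coding exon of the gene (3.19%, 1.62 to 6.16%). The other coding candidates were divided almost as the coding bases of the genome are. Of these candidates, 10.3% were in first, 73.0% in inner, 15.7% in last and 1.09% in single exons, against 10.9, 72.9, 15.3 and 1.01% of coding bases. The members' exons had a median length of 274 bp (interval of the median 243 to 300 bp), and those of the other coding candidates 324 bp.

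**Figure D1:**
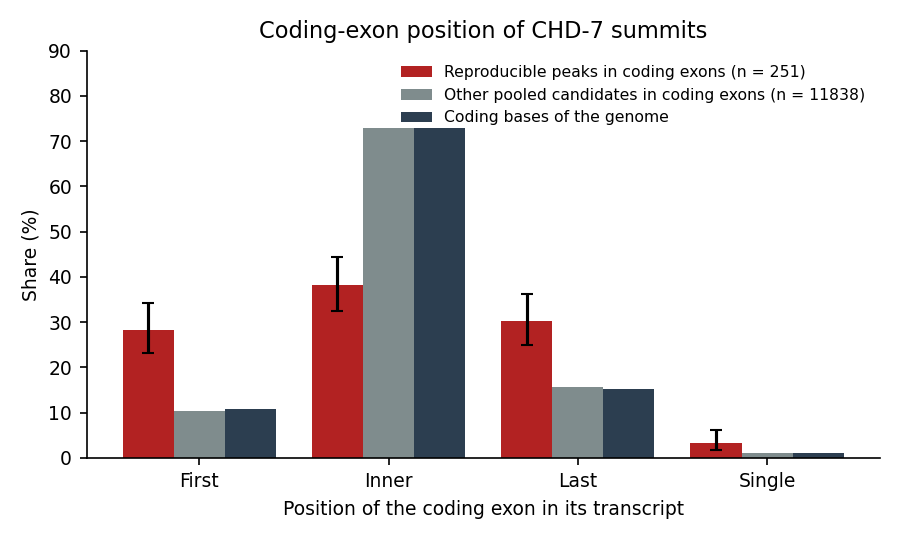
Share of summits, or of coding bases, in the first, inner, last and single coding exons, in percent. Red bars are the 251 reproducible peaks in coding exons with 95% Wilson intervals, grey bars the 11838 other coding candidates and dark bars the coding bases of the genome, and the red bar is above the others for first exons (28.3%) and last exons (30.3%) and below them for inner exons (38.2%).

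Measured along the coding sequence from start codon to stop codon, 90 members (35.9%) fell in the first 20% and 68 (27.1%) in the last 20%. The 3 stretches between held 26, 30 and 37 members. The other coding candidates were spread more evenly, with 17.8% in the first 20% and 20.3% in the last 20%. First-exon members had a median distance of 90 bp from the annotated start of the host gene, and 53 of the 71 were within 200 bp of it. Last-exon members had a median distance of 218 bp from the annotated end of the host gene, and 69 of the 76 were within 500 bp of it. Inner-exon members had median distances of 1703 bp from the gene start and 1518.5 bp from the gene end, with 4 of the 96 within 200 bp of the start and 13 within 500 bp of the end. The exon class itself sets these distances in part. No matching distances are given for the other coding candidates, so they only describe where the members lie.

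**Figure D2:**
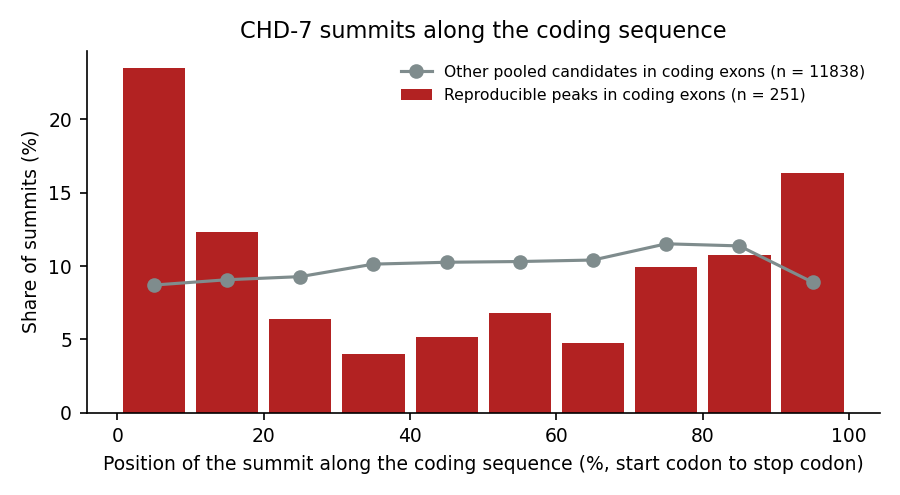
Share of summits, in percent, in 10 equal parts of the coding sequence from start codon to stop codon. Red bars are the 251 members and the grey line the 11838 other coding candidates, and the members are most frequent at both ends while the grey line stays near level.

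Most members were outside the windows set around annotated gene starts. A start window, 1000 bp before to 200 bp after the annotated start of a protein-coding gene, held 80 members (31.9%, 26.4 to 37.9%), against 16.2% of the other coding candidates. The window was the host's own for 66 members and that of another gene for 24, with 10 in both. Of the last-exon members, 7 lay in the start window of another gene and 1 in that of its own gene. The other 171 members were in no start window. The median signal was 198 (189 to 216) inside a window and 191 (184 to 198) outside, so the intervals overlap.

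The summits lay a median of 68 bp from the nearest exon edge, with quartiles of 34 and 113.5 bp and a lowest value of 0. The exon was seldom the whole region, since a median of 70.3% of the bases of a member's interval were coding, and 207 of the 251 intervals were at least 50% coding. In 6 members the summit was also within the body of another protein-coding gene, and no summit was in coding exons of more than 1 gene. Within the windows of 151 bp, 8 members held 36-base stretches that occur more than once in the genome, against 298 of the 1633 other reproducible peaks. The largest repeated share among members was 31.0% of such stretches, at vit-5. Members were spread over the chromosomes except that 23 (9.16%) were on X, against 23.5% of the other reproducible peaks. No share of coding bases or of the other coding candidates on X is given, so this describes the reproducible list only.

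Most members were in the lower-ranked part of the reproducible list. Their median signal was 192 (188 to 199), against 221 (216 to 227) for the other reproducible peaks, and the intervals do not overlap. Coding exons held 5.73% of the 471 peaks of highest signal, 11.0% of the next 471, 15.1% of the 471 after those and 21.4% of the last 471. The top 50 held 2 members and the top 500 held 30. By exon position the median signal was 206 in first, 187 in inner, 204 in last and 186 in single exons. The lowest member, in icd-2, had a signal of 165.747, and the highest coding candidate off the list, in vha-19, had 165.579. Among coding candidates, a place on the reproducible list thus went with pooled signal, also for members with a poor rank or no entry in 1 replicate. The peak caller gave 212 members (84.5%) its most common width of 390 bp, and the 34 narrower ones had a median signal of 286 against 188 for those of 390 bp.

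**Figure D3:**
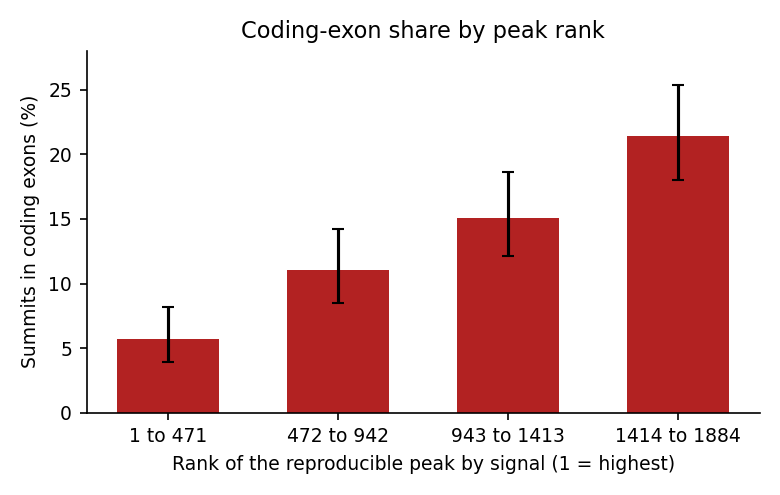
Share of the reproducible peaks whose summit is in a coding exon, in percent with 95% Wilson intervals, for 4 equal groups of 471 peaks from highest to lowest signal. The share rises from 5.73% in the first group to 21.4% in the last.

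The highest peak of the whole list was a member. It lay in exon 3 of 13 of snpc-4, at 8962814 to 8963494 of chromosome I, and snpc-4 encodes a subunit of the complex that binds the promoters of small nuclear RNA genes. Its signal was 5232 in the pooled data, 3774 in replicate 1 and 1495 in replicate 2, and it ranked 1 in both replicates. The highest reproducible peak outside coding exons had a signal of 1457. The summit was 915 bp inside the gene, and no other reproducible peak lay within 1000 bp of snpc-4.

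The other leading members had signals between 339 and 862. The peak in dos-3, a gene for a secreted Delta/OSM-11-like protein, was in the last of 11 coding exons, 235 bp from the gene end, with a pooled signal of 862 and rank 19 in both replicates. The peak in exon 22 of 30 of pks-1, which encodes a polyketide synthase, had a signal of 569 and ranks of 79 and 76 in replicates 1 and 2, and it lay 15729 bp inside the gene. The interval in suro-1, a carboxypeptidase gene, was listed with 2 summits in coding exons, 576 in the last exon and 215 in the inner exon before it, and the matching entries ranked 87 and 64. With snpc-4 and dhc-4, these genes held the members whose worse rank of the 2 replicates was best. The summit in exon 32 of 35 of dhc-4, a dynein heavy chain gene, had a pooled signal of 254. It overlapped replicate entries ranked 43 and 68, but the entries with the nearest summit ranked 484 and 1992.

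Of the 15 members of highest signal, 6 were in first, 6 in last and 3 in inner coding exons. Those in first exons included prmt-5, a protein arginine methyltransferase gene (471; ranks 166 and 113), and rpc-2, which encodes the second-largest subunit of RNA polymerase III (352; ranks 405 and 301). Y49A3A.3 (437; ranks 132 and 240), F42A6.6 (392; ranks 260 and 195), Y56A3A.22 (352; ranks 234 and 404) and D2096.7 (339; ranks 174 and 645) were the others, and all 6 summits were 26 to 156 bp from the gene start. In last exons, lelo-2 had a signal of 467 with ranks of 106 and 174, and best-18, a bestrophin channel gene, had 411 with ranks of 159 and 242. The peak in lsm-7, whose product belongs to the Sm-like RNA-binding proteins, had 340 with ranks of 472 and 300. The peak in the last exon of stdh-1, a steroid dehydrogenase family gene, had 456 but ranked 42 in replicate 1 and 619 in replicate 2. That in exon 9 of 10 of ceh-60, a homeobox gene, had 379 and ranked 392 in replicate 2, with no overlapping entry in replicate 1.

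The ranks of members differed between the replicates in 1 direction. Each member was matched to the overlapping entry of highest signal in the list of 30000 entries of each replicate, and 246 of the 251 had an entry in both. The median rank of members with an entry was 954 (824 to 1050) in replicate 1 and 1872.5 (1670 to 2145) in replicate 2. These intervals ignore that the ranks are paired by peak, so the difference for each peak is given next. The rank in replicate 1 minus that in replicate 2 had a median of -755.5 (-1042 to -538) over members and of 10 (-4 to 25) over 1585 other reproducible peaks. A better rank in replicate 1 was found for 181 of 246 members (73.6%, 67.7 to 78.7%) and for 48.1% of the others (45.7 to 50.6%). With only 2 replicates and 1 library for each, no test across samples was possible, and these shares describe this pair of libraries. The matched entry need not share the member's summit. By the entry of nearest summit within 100 bp, replicate 1 ranked lin-52 7522 instead of 767 and vha-20 8969 instead of 642. In replicate 2, rsp-8 had no such entry. Matching every member by nearest summit gave a median difference of -678.

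**Figure D4:**
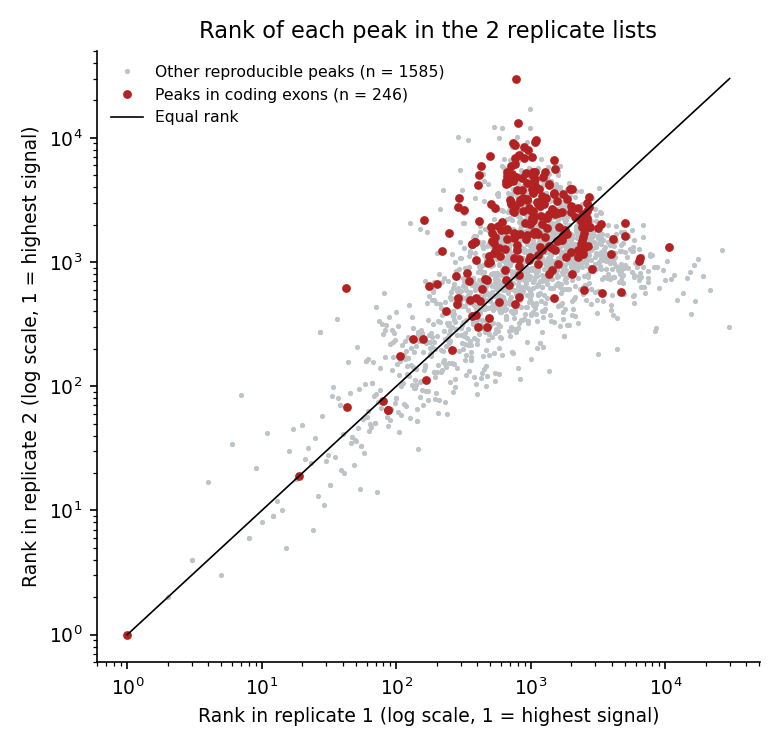
Rank of each reproducible peak in replicate 1 (horizontal) and replicate 2 (vertical), both on log scales with 1 the highest signal. Red points are the 246 members and grey points the 1585 other reproducible peaks with an entry in both lists, the line marks equal rank, and most red points are above it, at a worse rank in replicate 2.

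Taking the 1884 highest entries of each replicate, the length of the reproducible list, 204 members (81.3%) overlapped one in replicate 1 and 126 (50.2%) in replicate 2. Of the members, 100 did so in both, 104 in replicate 1 only, 26 in replicate 2 only and 21 in neither. For the other reproducible peaks the shares were 76.5% in replicate 1 and 81.2% in replicate 2. The lists themselves differed the same way, since coding exons held 410 of the top 1884 summits of replicate 1 (21.8%) and 173 of those of replicate 2 (9.18%). Over all 30000 entries the shares were 44.6 and 32.9%. By exon position, the 410 coding summits of replicate 1 were 22.2% first, 48.0% inner and 26.6% last, and the 173 of replicate 2 were 36.4, 32.9 and 28.9%.

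The median rank difference was smaller for members in first coding exons than for those elsewhere, with intervals that overlap. First-exon members ranked better in replicate 1 in 65.2% of cases with a median difference of -323 (-622 to -30). Inner-exon members did in 75.5% with -1022.5 (-1640 to -538), and last-exon members in 78.7% with -1033 (-1174 to -621). The 8 single-exon members did so in 6 cases, with -2374. Within a start window the median difference was -464 (-714 to -108), and outside every window it was -1033 (-1227 to -678), so these intervals overlap. Median ranks in replicates 1 and 2 were 822 and 1415 in first, 1036.5 and 2242.5 in inner, and 831 and 1910 in last exons. A rank difference can grow with the rank numbers. The differences between exon positions were not tested. Within the 471 highest reproducible peaks 15 of 25 members ranked better in replicate 1, and in the next 3 groups of 471 peaks 80.8, 76.8 and 71.0% did, while the other reproducible peaks stayed between 47.4 and 49.2%.

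Base composition moved with the rank difference. The median GC content of the 151 bp around the summit was 47.7% for members and for the other reproducible peaks, and 45.0% for the other coding candidates. Members ranked better in replicate 1 had a median of 47.7% (47.0 to 49.7%), and those ranked better in replicate 2 had 43.7% (41.7 to 46.4%). Below 40% GC, 51.2% of members ranked better in replicate 1, and at 40 to 45, 45 to 50 and at 50% GC or more the shares were 66.7, 80.8 and 82.9%. For the other reproducible peaks these 4 shares were 38.0, 45.5, 47.1 and 55.4%, so the share of members was above that of the others at each level of GC. Spearman's rho between GC and the rank difference was -0.32 over 246 members and -0.15 over 1585 others, as a description of peaks that share the same libraries. The part of GC in the rank difference was not tested.

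**Figure D5:**
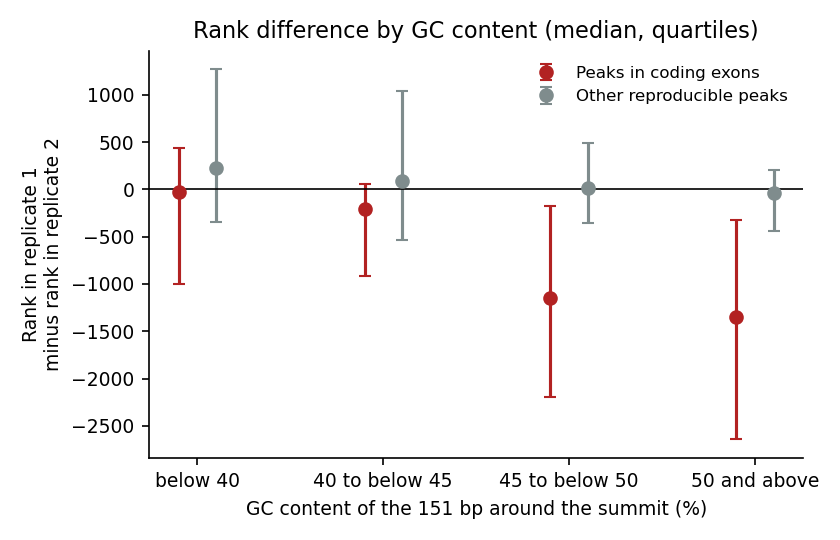
Rank in replicate 1 minus rank in replicate 2, as median with lower and upper quartile, in 4 bins of GC content in percent. Red points are the members and grey points the other reproducible peaks, and the median of members goes from -30 below 40% GC to -1351.5 at 50% and above, while that of the others goes from 223 to -40.

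The widest gaps were at weak peaks. The second peak in chd-7 ranked 775 in replicate 1 and 29808 in replicate 2, that in nhr-88, a nuclear hormone receptor gene, 801 and 13126, that in F01D5.8 1097 and 9647, and that in gei-4 735 and 9021. In the other direction, slc-25A21, a mitochondrial carrier family gene, ranked 10662 and 1309, ZK1010.2 6479 and 1079, R12C12.6 6351 and 1010, and K07C5.3 4709 and 578. Pooled signals of these 8 members were between 169 and 199. The chd-7 entry of rank 29808 overlapped the peak, but no replicate 2 entry had its summit within 100 bp. No overlapping entry was found in replicate 1 for ceh-60, F59B8.1, R119.3 and the peak in exon 4 of W09D6.5, and none in replicate 2 for C42D8.9.

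The gene of the tagged protein was itself a host. Members lay in exon 3 of 10 of chd-7 (signal 246; ranks 288 and 2761) and in exon 2 (187; ranks 775 and 29808), and the gene with 1000 bp to each side held 3 reproducible peaks with signals of 187 to 385. The exon 2 summit of chd-7 had no replicate 2 entry with a summit within 100 bp. The transgene adds copies of chd-7 sequence to these worms, and the part of copy number in the chd-7 peaks was not tested. No reproducible peak lay within 1000 bp of unc-119, the gene mutated in the strain. The gene with most members was mnk-1, a MAP kinase-interacting kinase gene, with signals of 219, 178 and 169 in exons 2, 3 and 1, all ranked better in replicate 1. Besides mnk-1, chd-7 and suro-1, 6 genes held 2 members each, which were W09D6.5, C01G10.9, dhs-25 (a short-chain dehydrogenase gene), nadk-2 (a mitochondrial NAD kinase gene), T02G5.7 and cpt-1 (a carnitine palmitoyltransferase gene). The 2 summits in C01G10.9 overlapped the same entry of each replicate, ranked 383 and 1444.

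Host genes were spread thinly over functions. Of 26 gene lists, 17 held a host and 9 held none, and 32 of the 241 host genes were on any list. These counts are set beside the share of all genes that were hosts, 1.21%, and with so few hosts a list they are given as counts only. In the machinery of small RNA transcription and RNA polymerases, 2 of 49 genes were hosts, snpc-4 and rpc-2, described above. On the list of chromatin regulators 4 of 105 genes were hosts. These were lin-52 (251; ranks 767 and 455), a subunit of the DRM complex, chd-7, and the SWI/SNF subunit genes swsn-7 (171; ranks 861 and 4769) and swsn-1 (169; ranks 4110 and 1539). That list is not complete, since prmt-5 (471) and the chromodomain gene cec-6 (206) were hosts and were not on it. Of the homeobox genes 1 of 95 was a host, ceh-60. Of the nuclear hormone receptor genes 2 of 274 were hosts, nhr-105 (216; ranks 1575 and 1466) and nhr-88.

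The list of cytoskeletal motors, tubulins and spectrins gave 5 of 56 genes, the largest number of hosts on a list. They were dhc-4, unc-33 (243; ranks 588 and 1120), tbg-1 for gamma-tubulin (198; ranks 1051 and 1740), spc-1 for alpha-spectrin (180; ranks 1015 and 2242) and klp-7 for a microtubule-depolymerising kinesin (171; ranks 1143 and 3843). Of these, unc-33 is an axonal CRMP-family gene and not a motor, tubulin or spectrin. The kinesin light chain gene klc-2 (177; ranks 2133 and 2313) was a host but was not on the list. All but dhc-4 and unc-33 had pooled signals under 200. The summits in dhc-4 and unc-33 lay 76 and 58 bp from small RNA genes. The vacuolar proton pump gave 2 of 21, vha-2 (236; ranks 771 and 1660) and vha-20 (228; ranks 642 and 1273), both in first exons. Of 6 vitellogenin genes, which encode yolk proteins, 2 were hosts, vit-5 (230; ranks 747 and 1086) and vit-2 (208; ranks 606 and 2088), again in first exons. The vitellogenins are similar in sequence to each other. Of the 36-base stretches around the summit, 31.0% in vit-5 occur more than once in the genome, so the value of vit-5 is uncertain, and 0% do in vit-2.

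Genes of protein synthesis, splicing, protein turnover, signalling and structure gave 1 or 2 hosts a list. Of 83 cytosolic ribosomal protein genes, 2 were hosts, rps-16 (256; ranks 687 and 654) and rpl-4 (188; ranks 776 and 4804), and of 63 translation factor and tRNA synthetase genes, 2 were, eef-1G (198; ranks 824 and 3161) and eef-1B.2 (183; ranks 1109 and 3035). Pre-mRNA splicing gave rsp-8, an SR protein gene (291; ranks 160 and 2165), and snrp-200, a spliceosomal helicase gene (283; ranks 454 and 733), out of 64. The proteasome gave pas-1 (234; ranks 565 and 1956) out of 33, and the respiratory chain atp-4 (180; ranks 892 and 8465) out of 66. Of secreted signals, dbl-1, the ligand of the BMP-like pathway that sets body size, was a host (198; ranks 873 and 3267), 1 of 28 genes on its list. So was nlp-21, a neuropeptide gene (203; ranks 981 and 2621), 1 of 141. The muscle gene unc-22 for twitchin (193; ranks 1727 and 1638) was 1 of 50, and the collagen gene col-107 (170; ranks 2034 and 3848) 1 of 175. The chemoreceptor genes srt-47 (294; ranks 351 and 497) and str-208 (216; ranks 406 and 4177) complete the lists with hosts. They were 2 of 1365 chemoreceptor genes (0.147%), against 1.21% of all protein-coding genes. The lists held no host for heat shock and chaperone, basement membrane, histone, germline RNA regulator, nuclear pore, ABC transporter, insulin and dauer, F-box and MATH-domain, or sperm genes. The F-box and MATH-domain list held 401 genes and the other empty lists 20 to 82. Lists of 20 to 82 genes are too short for 0 hosts to be told apart from the share of all genes. The lists are not complete, and pie-1 (217), a germline regulator, and vbh-1 (176), a Vasa-like RNA helicase gene, were hosts on no list.

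Some members were near small non-coding RNA genes. Within 100 bp of a gene annotated as tRNA, snRNA, snoRNA or rRNA lay 9 of the 251 members (3.59%, 1.90 to 6.67%). Of the 11838 other coding candidates, which by definition overlap no reproducible peak, 11 did (0.0929%), and of the 1633 other reproducible peaks 302 did (18.5%). The choice of summits in coding exons keeps members off the small RNA genes themselves, so the share among the other reproducible peaks is given as a description. The 9 members included the 2 summits in W09D6.5, 40 and 93 bp from the spliced-leader genes sls-2.15 and sls-2.14. Transfer RNA genes lay 29 bp from the summit in C04A2.15, 34 bp from that in F22B7.9, 58 bp from that in unc-33 and 25 bp from that in sur-7. The snRNA gene R07E5.16 was 76 bp from the dhc-4 summit, and snoRNA genes were 16 and 75 bp from those in ril-2 and rpl-4.

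The motifs searched in the 151 bp windows, on both strands, were GAGAGA, the E-box CACGTG and GGTTCGA, the core of the tRNA B box. GAGAGA was in 24 member windows (9.56%, 6.51 to 13.8%), in 33.4% of the other reproducible peaks and in 8.39% of the other coding candidates. CACGTG was in 15 (5.98%, 3.65 to 9.62%), against 10.5 and 5.32%. GGTTCGA was in 1 (0.398%), against 8.88 and 1.46%, and that window, in C04A2.15, holds it at 2 places in the sequence printed above. The first place lies before the coding exon and the second inside it. A tRNA gene lay 29 bp from this summit, and whether the first place belongs to that gene was not tested. For each motif the interval of the members held the share of the other coding candidates and lay below that of the other reproducible peaks. The choice of summits in coding exons keeps members off tRNA genes themselves, so for GGTTCGA the lower share is a description only.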

How the data were processed

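The 2 biological replicates of CHD-7 ChIP-seq form 1 group, per the labels. The authors deposited lists on the ce11 build for each replicate, for the pool and for the reproducible peaks (irreproducible discovery rate). For the aligner, the peak caller and the cutoff, nothing is given in the sources used here. The deposited signal column ranks peaks within a list (1 is highest). The deposited −log10 q column, tied at 3.43 for 1350 of the 1884 peaks, was not used. Depth is unknown.

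Summits (start plus offset) were set against Ensembl release 115 gene models of WBcel235, the same sequence as ce11, whose bases came from RefSeq. Exon position was taken from 1 transcript per summit. Members were matched to replicate entries by at least 1 bp. Intervals are 95% Wilson intervals for shares and order-statistic intervals for medians. No test was possible across samples. The exon lookup and the naming of exon position within a known transcript were tested on 2000 planted summits, and all were recovered. The choice of transcript was not part of that test. Python 3.11.15, numpy 2.4.6, pandas 2.3.3 and scipy 1.17.1 were used.

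Members, gene lists and motifs were chosen with earlier results of these data known. Named were the hosts of the 15 members of highest signal, of the 5 with the best worse rank, of the 4 largest rank differences each way, of members without a replicate entry, of up to 3 members per gene list, genes with 2 or more members, chd-7 and unc-119. Genes outside this rule (spc-1, klp-7, klc-2, swsn-1, cec-6, icd-2, vha-19, pie-1, vbh-1 and further hosts near small RNA genes) were named after their values were seen. Alternatives are given in the closing section.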

Additional observations from a re-analysis of the deposited data

How the results depend on the processing

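Of 42 alternatives, 27 left a result near its value, 15 moved it and 0 reversed it. The coding share of 13.3% became 31.1% with any coding base in the interval, 8.39% in the higher-ranked 942 peaks, and 9.18 to 21.8% with the top 1884 entries of 1 replicate alone. In those single-replicate lists, summits in first exons numbered 63 to 91, in inner exons 57 to 197, in last exons 50 to 109 and in single exons 3 to 13. These alternatives were judged on counts, although the lists held 173 coding summits in replicate 2 and 410 in replicate 1. A last-exon count of 109 against 76 was classed as near. The shares by exon position, given above for each replicate, differed more than the classes show. Ranking only among matched entries changed the median rank difference from -755.5 to -378, with 180 of 246 members still better in replicate 1. Start windows of 500 bp up and 100 bp down held 46 members, and windows at every transcript start held 95. Members near small RNA genes were 14 at 500 bp and 0 at 0 bp. The median GC over whole intervals was 43.1%. Counting any coding base gave 80 host genes on lists. The cause of these changes was not tested, beyond what the wider or narrower definitions fix by construction. No paired analysis was possible because there was 1 group. Without read counts, no error from depth could be given for any signal or rank, and 2 libraries cannot separate replicate from batch.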
